A study of Mus musculus with 18 samples.

Results

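The nuclei described here are choroid plexus epithelial nuclei captured in hippocampus (Hip) libraries of mice raised without microbes (germ-free, GF), mice with an ordinary microbiota (specific pathogen-free, SPF) and GF mice given a microbiota later (colonized, CGF). They were chosen by their own counts. A nucleus was taken when it carried at least 3 unique molecular identifiers (UMIs, each standing for 1 captured RNA molecule) of Folr1, Kl, Otx2 and Slc4a5 in sum, and when that sum was at least 2 times its sum of UMIs over 10 genes of other cells, namely Slc17a7, Gad1, Gad2, Mog, Mag, Aqp4, Csf1r, Flt1, Tmem212 and Ccdc153. This gave 799 of 71398 Hip nuclei (1.12%) with at least 200 genes detected and at most 10% mitochondrial UMIs. The same rule found 2 nuclei in the prefrontal cortex libraries of the same mice, and the whole series held 138000 nuclei after these filters.

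All animals were 8-week-old Kun Ming mice, with 3 mice in each group and 1 Hip library from each mouse. GF mice were derived from SPF mice and kept sterile in isolators. CGF mice were GF animals that shared a cage in such an isolator with an SPF mouse from young age until sampling, so that their microbiota came from 1 cage mate and arrived after birth. GF and CGF mice shared isolator housing, whereas SPF mice were raised elsewhere, so that housing and microbiota cannot be told apart between GF and SPF. The 9 Hip libraries held from 49067853 to 63217083 UMIs.

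The choroid plexus is a folded epithelium that hangs into the brain ventricles and secretes most of the cerebrospinal fluid (CSF). Its cells pump sodium, chloride and bicarbonate towards the ventricle, with water following through channels, and tight junctions between them form the barrier between blood and CSF. They also secrete carrier proteins into the CSF, of which transthyretin (Ttr), the carrier of thyroid hormone and retinol-binding protein, is the best known. The choroid plexus of the lateral ventricle lies against the hippocampus, and the amount taken with the tissue varies with the dissection.

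The count of these nuclei differed widely between mice of the same group. CGF mice 17, 18 and 19 gave 38, 3 and 131 nuclei. GF mice 5, 6 and 7 gave 1, 219 and 71 nuclei. SPF mice 30, 31 and 32 gave 39, 69 and 228 nuclei. As shares of all nuclei kept, these were 0.589%, 0.0342% and 1.62% in CGF, 0.0123%, 2.50% and 0.823% in GF, and 0.558%, 0.935% and 2.79% in SPF. The 95% Wilson intervals, which cover counting error only, ran from 0.00217% to 0.0697% in GF mouse 5 and from 2.46% to 3.17% in SPF mouse 32. The group shares were 1.11% ± 1.27 in GF, 1.43% ± 1.20 in SPF and 0.747% ± 0.803 in CGF (SD, n = 3 mice each), and they overlapped. An exact two-sided permutation test over the 9 mice gave p = 0.725 for the 3 groups, and 3 mice against 3 cannot give p below 0.1.

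**Figure D1:**
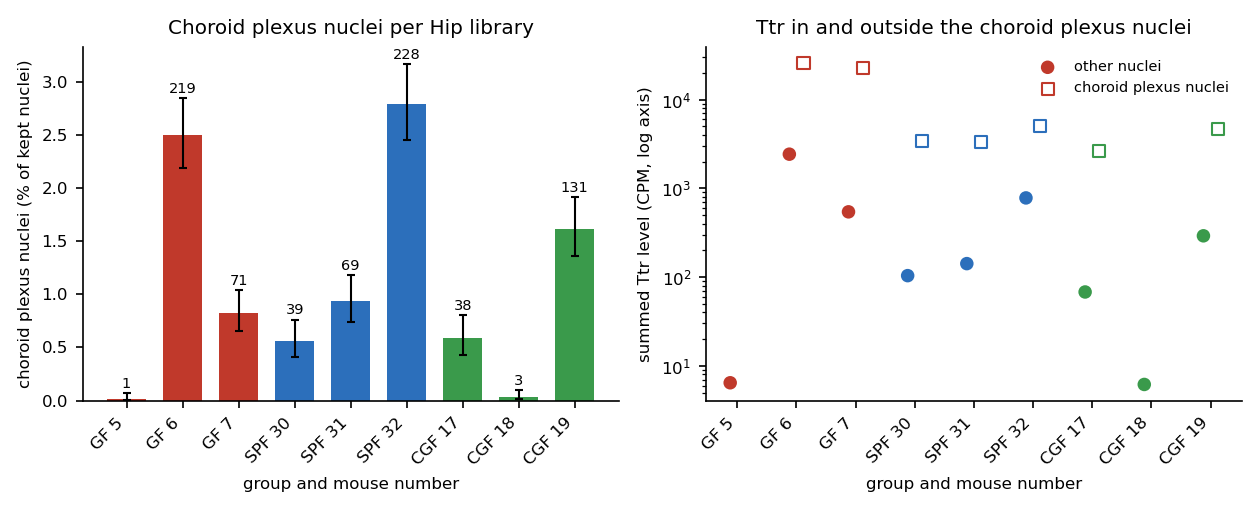
Left, choroid plexus nuclei of each Hip library as a percentage of all nuclei kept, as bars with 95% Wilson intervals and the number of nuclei above; right, summed Ttr level in CPM on a log axis in the choroid plexus nuclei (open squares) and in the other nuclei (filled circles) of each mouse, where the squares of GF mouse 5 and CGF mouse 18 are at 0 and not drawn. The lowest and highest mouse of a group lay far apart, from 0.0123% to 2.50% in GF, and both Ttr levels were highest in GF mouse 6.

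GF mouse 5 and CGF mouse 18 stood apart from the other 7 libraries. Their 4 nuclei met the rule but carried a median of 1.54 UMIs per 10000 from the 29 other choroid plexus markers besides Ttr, with 1 to 2 of these markers detected, and no UMI of Ttr. The 795 nuclei of the other 7 libraries carried a median of 550 such UMIs per 10000 and 17 of the markers. The label choroid plexus epithelium therefore held in 7 libraries and went against the data for these 4 nuclei, and the comparisons across genes below used the 7 libraries with at least 10 nuclei (2 GF, 3 SPF and 2 CGF). Ttr in the remaining nuclei was also low in these mice, at 6.44 and 6.17 UMIs per 1000000 UMIs (CPM), against 67.9 to 2423 CPM in the 7 others. Across all 9 mice, the share of choroid plexus nuclei and the Ttr level of the remaining nuclei ran together, with Pearson's r = 0.741 (exact two-sided permutation p = 0.0124) and a Spearman rank correlation of 0.9 (exact permutation p = 0.00203). This was the only relation computed, and r was 0.611 without GF mouse 6 and SPF mouse 32 (n = 7). Any 2 Hip libraries shared 9 to 29 barcodes among their kept nuclei, and no 2 libraries shared a barcode among their choroid plexus nuclei. Whether a choroid plexus barcode recurred among the other nuclei of a second library was not tested.

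The 4 markers that set the membership are given as a description. Kl, an obligate partner of the receptor for the hormone FGF23, had a UMI in 698 nuclei (87.4%). Slc4a5, a sodium bicarbonate cotransporter of the ventricular face, had one in 648 (81.1%). Otx2, a homeobox transcription factor needed for the choroid plexus to form, had one in 625 (78.2%), and Folr1, the receptor that carries folate into the CSF, in 456 (57.1%). Among the 70599 other Hip nuclei the shares were 5.79%, 0.569%, 0.656% and 2.00%. All 4 were seen in 253 nuclei, 3 of them in 358, 2 in 153 and 1 in 35. Just inside the threshold, 98 nuclei with a marker sum of exactly 3 had a median of 490 UMIs per 10000 from the outside markers and 14 of 29 detected. Just outside it, 208 nuclei with a sum of 2 had 30.6 and 3 detected. A further 179 nuclei had a marker sum of 3 or more but too many UMIs of other cell types, with 51.8 UMIs per 10000, 9 markers detected and a median of 8316 UMIs in all.

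Genes that the rule did not use marked the same nuclei. Summed over the 7 libraries with at least 10 of these nuclei, all 30 choroid plexus markers outside the rule were higher than in the other Hip nuclei. The median was 46.5 times, and 29 of them were higher by more than 10 times. The lowest ratio was 6.65, for Slc29a4, a plasma membrane transporter of monoamines. Trpm3, a cation channel gene, was at 20431 CPM, or 15.5 times its level in other nuclei. Htr2c, the serotonin 2C receptor, was at 14059 CPM and 112 times. Enpp2, which encodes the secreted enzyme autotaxin, was at 6892 CPM and 57.1 times. The nuclei were chosen by co-expressed genes, so that these ratios describe them and carry no test.

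The 20 genes with the largest ratio to other nuclei included Slc4a5 and Otx2 of the rule. They were led by Gm48447, a long noncoding RNA, at 407 times, and Defb9, a defensin gene, at 373 times. Slc4a5 followed at 343 times, AC166574.5 and Tmem72 each at 284 times and Otx2 at 277 times. The noncoding Otx2os1, at 265 times and 3274 CPM, lies on the opposite strand from Otx2 and overlaps it. Whether the counting used strand is not given in the sources used here, and reads of this pair would be mixed only where it was not. Cdh3, which encodes P-cadherin, stood at 271 times, and Trpv4, an osmosensitive cation channel, at 218 times. Rbm47, an RNA-binding protein gene, stood at 205 times and Lmx1a, a homeobox gene of the dorsal midline, at 187 times. The set also held Clic6, of the chloride intracellular channel family, at 163 times, the lactate transporter gene Slc16a8 at 154 times, the multiciliation regulator Gmnc at 145 times and the basement membrane collagen gene Col4a3 at 143 times. The other 5 were Tc2n (203 times), Gm853 (187), Wdr86 (186), Col8a1 (169) and G630093K05Rik (154).

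A pair of promoters is printed to show the DNA before genes that set these nuclei apart, Rbm47 among the 20 ratio genes and Htr2c, with its high level. Both runs are from RefSeq on build GRCm38.p6, 5′ to 3′ on the gene's own strand, and lie within the 250 bases before an annotated start. Capitals mark TAATCC, the core that Otx2 and related homeobox proteins are known to bind, on either strand (GGATTA on the other).
Rbm47 chr5:66152085-66152204 minus strand: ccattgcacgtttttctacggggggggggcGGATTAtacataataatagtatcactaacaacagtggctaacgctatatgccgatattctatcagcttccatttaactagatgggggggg
Htr2c chrX:146962393-146962512 plus strand: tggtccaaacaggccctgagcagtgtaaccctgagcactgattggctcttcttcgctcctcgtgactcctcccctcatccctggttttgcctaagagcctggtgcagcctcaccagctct
The 6 letters stood in the upstream windows of 1949 of 27025 genes (7.21%). Of the 20 ratio genes, 13 had a window in the table and 2 of these (Otx2 and Rbm47) held the letters, which is a match of letters only.

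Markers of the other cell types of the hippocampus were mostly below their level elsewhere, with 15 of 51 above the level in the other nuclei. Neuron markers summed to 4415 to 11850 CPM over the 7 libraries, against 24920 to 29450 CPM in the other nuclei. Oligodendrocyte markers summed to 223 to 553 CPM against 553 to 843, astrocyte markers to 281 to 735 against 959 to 1707 and endothelial and mural markers to 21.5 to 65.8 against 63.2 to 140. Fibroblast markers lay at 45.8 to 106 CPM against 39.2 to 71.1. Microglia and macrophage markers summed higher, to 153 to 280 CPM against 67.0 to 108. Cx3cr1 was at 155 CPM over these 7 libraries, or 8.06 times its level in the other nuclei. The next highest ratio of this list was 1.16, for C1qa. Ependyma markers summed to 360 to 1030 CPM against 37.8 to 70.8, and the cilia genes Cfap43 and Hydin led, at 341 and 96.7 CPM. Cfap43, Dynlrb2, Hydin and Rsph1 of this list were 29.6, 12.9, 12.6 and 3.54 times their level in the other nuclei. Fam216b was at 1.63 times, whereas Dnah12 and 1110017D15Rik lay below the other nuclei, at 0.267 and 0.711 times. Mia had no UMI in these nuclei, but at 0.0208 CPM in the other nuclei it was too rare there for its absence to be read.

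Marker sums of other cell types moved with the groups. That of neurons was 4415 to 4435 CPM in GF, 4817 to 10190 CPM in SPF and 8608 to 11850 CPM in CGF, and GF lay below both. The astrocyte marker sum did so too, at 281 to 358 CPM in GF, 379 to 735 CPM in SPF and 452 to 496 CPM in CGF. The oligodendrocyte marker sum was 223 to 286 CPM in GF, 283 to 553 CPM in SPF and 330 to 355 CPM in CGF, with GF and SPF overlapping. That of microglia and macrophages went the other way, at 222 to 280 CPM in GF, 180 to 253 CPM in SPF and 153 to 184 CPM in CGF, with GF above CGF and overlapping with SPF. Endothelial and mural markers summed to 56.2 to 65.8 CPM in GF, 21.5 to 62.3 CPM in SPF and 43.3 to 46.0 CPM in CGF, and fibroblast markers to 45.8 to 74.3, 51.6 to 63.0 and 74.7 to 106 CPM, with CGF above both. Among the 7 libraries, mitochondrial UMIs were highest in GF. They made up 1.33% and 1.42% of the UMIs of choroid plexus nuclei in GF mice 6 and 7, 0.523%, 0.194% and 0.491% in SPF mice 30, 31 and 32, and 0.0794% and 0.198% in CGF mice 17 and 19. The nuclei of GF mouse 5 and CGF mouse 18 were at 0.174% and 0.0376%. Over the 9 mice the exact two-sided permutation test gave p = 0.0929, and over the 7 libraries with at least 10 nuclei p = 0.0286, an alternative chosen after seeing the data. Without GF mouse 5 the exact permutation test gave p = 0.00714. The other nuclei of the 7 libraries were also highest in GF, so that this was not limited to choroid plexus nuclei. Their mitochondrial share was 0.802% and 0.875% in GF, 0.195%, 0.114% and 0.427% in SPF and 0.0685% and 0.201% in CGF. The median depth of a choroid plexus nucleus was 3696 and 4120 UMIs in GF, 5412, 4511 and 5535 in SPF and 5304 and 4779 in CGF (exact permutation p = 0.571 over 9 mice and 0.124 over 7). The part of these measures in the gene results below was not tested.

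Ttr was higher in GF than in both other groups. In choroid plexus nuclei it stood at 28001 and 24261 TMM-scaled CPM in GF mice 6 and 7, at 3650, 3439 and 5246 in SPF mice 30, 31 and 32, and at 2921 and 5023 in CGF mice 17 and 19. Both GF libraries lay above all 5 others, and SPF and CGF overlapped. The log2 difference between GF and SPF was 2.67 ± 0.25 (SE), or 6.34-fold, with an adjusted p of 0.00024 (edgeR quasi-likelihood test, Benjamini-Hochberg over 7549 genes). It was 2.71 between GF and CGF (adjusted p = 0.00083) and -0.05 ± 0.24 between CGF and SPF (adjusted p = 0.993). Without GF mouse 6 the difference from SPF was 2.54 with an adjusted p of 0.00599, and without GF mouse 7 it was 2.73. With looser membership, which let in 21 nuclei of CGF mouse 18, it was 2.65 with an adjusted p of 0.22. Ttr was detected in 788 of the 799 nuclei (98.6%), but also in 60.0% of the other Hip nuclei, which should lack it, at a median depth of 5883 UMIs against 4727. With every nucleus thinned to 1000 UMIs, the share with Ttr was 81.6% to 100% in choroid plexus nuclei of the 7 libraries and 9.74% to 87.0% in the other nuclei, after leaving out 0 to 464 shallower nuclei of a library, 1 choroid plexus nucleus among them.

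The other nuclei of the same libraries carried Ttr at levels that also differed widely. Before scaling, it was at 2423 and 543 CPM in GF mice 6 and 7, at 104, 142 and 779 CPM in SPF mice 30, 31 and 32 and at 67.9 and 292 CPM in CGF mice 17 and 19. The choroid plexus nuclei lay 10.6 and 41.8 times above these values in GF, 32.6, 23.2 and 6.47 times in SPF and 38.7 and 15.9 times in CGF, and they held 11.7% to 21.7% of all Ttr UMIs of a library. The GF-to-SPF difference in the other nuclei was 1.99 on the log2 scale with an adjusted p of 0.150. The test of whether the difference was larger in choroid plexus nuclei gave 0.34 ± 0.37 (SE, adjusted p = 0.961), so that a difference particular to them was not shown.

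The levels of the 4 membership genes are given without a test. Folr1 stood at 409 and 318 TMM-scaled CPM in GF, 111, 160 and 152 in SPF and 192 and 165 in CGF, with both GF libraries above all others. Kl stood at 631 and 602 in GF, 496, 531 and 469 in SPF and 524 and 567 in CGF. Otx2 stood at 419 and 395 in GF, 403, 516 and 402 in SPF and 284 and 413 in CGF. Slc4a5 stood at 329 and 495 in GF, 422, 412 and 440 in SPF and 371 and 411 in CGF. Otx2 overlapped between the groups and Slc4a5 between GF and the others, with both CGF libraries below the lowest SPF library, and Kl was higher in both GF libraries by a small margin.

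**Figure D2:**
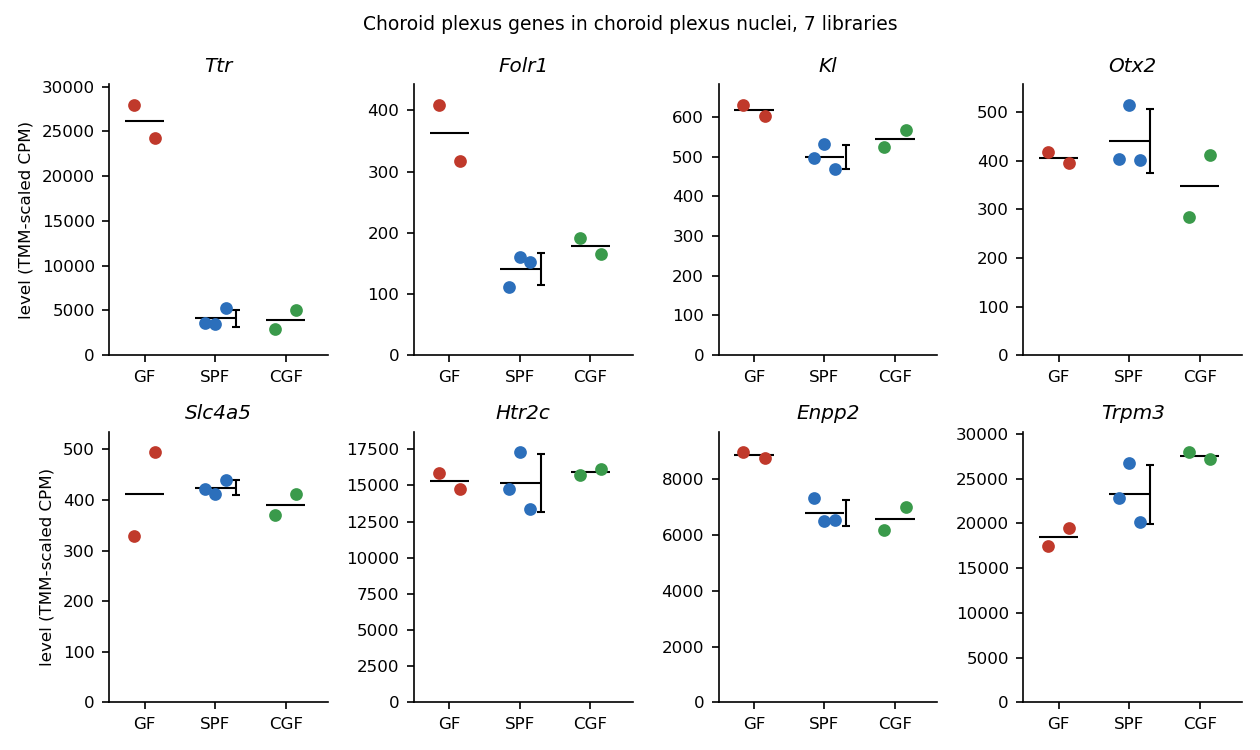
Level in choroid plexus nuclei, in TMM-scaled CPM, of Ttr, the 4 membership genes, Htr2c, Enpp2 and Trpm3, with 1 point for each of the 7 libraries, a line at the group mean and a bar of 1 SD for SPF (n = 3). The GF points of Ttr lay at 28001 and 24261 against 2921 to 5246 in the other 5 libraries, whereas the GF points of Otx2, Slc4a5 and Htr2c overlapped with those of SPF.

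Across all genes, GF and SPF choroid plexus nuclei differed at 1001 of 7549 genes (13.3%), with 673 higher in GF (8.92%) and 328 lower (4.34%). The median log2 difference over all tested genes was -0.02. The 2 GF and 3 SPF libraries did not overlap at 997 of the 1001 genes, and at 45.8% of all tested genes. The count rested on the GF libraries: it was 19 without GF mouse 6, 379 without GF mouse 7 and 628 without SPF mouse 32, where a lone GF library was assumed to vary like the other groups. DESeq2 called 320. Of the results for genes named here, 96 passed the threshold over all comparisons, and 17 of them did so without GF mouse 6 and 56 without GF mouse 7. Under other settings not every one of these could be tested: 42 of 87 passed with DESeq2, 41 of 79 after the correction for length and GC content, 19 of 69 with stricter and 28 of 79 with looser membership. Among the genes given below as called between GF and SPF, the call held under the fewest alternatives for Igf2r, Cfap54, Hes1, Cntnap5c, Nfib, Cfap44 and Zic1, which passed under 3 to 7 of 14 to 17 alternatives, and for Irf3, Adcy1, Fxyd1, Kif27, Car14, Steap1, Trpv4, Igfbp7, Dnah11, Kcne2 and Lepr, which passed under 8 to 9 of 15 to 17. Most of these differences were not limited to the choroid plexus: 856 of the 1001 (85.5%) were also called with the same sign in the other nuclei of these libraries. There, 8071 of 19952 genes (40.5%) were called in either direction. That set is wider than the 7549 genes, for which the share alone is not given here, so that the 2 shares are not like for like. Of the genes called higher, 627 (93.2%) were at least as high in choroid plexus nuclei as in the other nuclei, as were 115 (35.1%) of those called lower and 5475 (72.5%) of all tested genes. After correction of each library for its dependence on the length and GC content of genes, 241 genes were higher and 187 lower, so that the share of higher calls went from 67.2% to 56.3%.

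Secreted proteins formed the list with the most calls among those of choroid plexus function. Of 35 genes listed, 24 passed the filter on low counts, 10 were higher in GF than in SPF and none was lower. Over all genes, 8.92% were higher and 4.34% lower. The median log2 difference was 0.52 over the 24 against -0.02 over all genes. Besides Ttr, 1500015O10Rik (chr1:43730602-43742578 on GRCm38, GENCODE vM21), the gene of a secreted peptide precursor also called Ecrg4, stood at 375 and 330 TMM-scaled CPM in GF, 46.4, 22.0 and 55.3 in SPF and 26.2 and 48.4 in CGF. The GF libraries lay above all others, and the difference from SPF was 2.95 ± 0.26 on the log2 scale (SE, edgeR adjusted p = 0.00024), and it stayed called without any 1 library. Igfbp2, a binding protein of insulin-like growth factors, stood at 428 and 352 in GF against 92.7, 119 and 131 in SPF and 122 and 162 in CGF (log2 1.72, adjusted p = 0.0011). Sostdc1, a secreted antagonist of BMP and Wnt signals, stood at 245 and 162 against 60.3, 18.9 and 39.0, with 48.0 and 51.4 in CGF (log2 2.46, adjusted p = 0.00115, and 0.053 without GF mouse 6).

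Other secreted proteins of the list rose as well. Apoe, a lipid carrier, was higher by 1.88 on the log2 scale (edgeR adjusted p = 0.00119), and it stayed called without any 1 library. Cst3, the protease inhibitor cystatin C, was higher by 1.88 (adjusted p = 0.00262). Clu, which encodes the chaperone clusterin, Spint2, a serine protease inhibitor, and Ptgds, the prostaglandin D synthase of the CSF, were higher by 1.53, 1.26 and 1.48. Igfbp7 was higher by 2.02 but was at 0 in CGF mouse 17 and at 55.9 in CGF mouse 19. In the other nuclei, Apoe was higher by 1.36 (adjusted p = 0.00314) and Cst3 by 1.63 (adjusted p = 0.00239). Enpp2 stood at 8984 and 8777 in GF and 7327, 6520 and 6538 in SPF (log2 0.39 ± 0.16, adjusted p = 0.132), and Sulf1, an extracellular sulfatase gene, at 1464 and 1602 against 2175, 2257 and 1734 (adjusted p = 0.137).

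Genes of CSF secretion had a median difference near 0, with some members called. Of 33 listed genes of ion and water transport, 27 were tested, 5 were higher in GF (8.92% of all genes were) and 1 was lower (4.34% of all genes), with a median log2 difference of -0.03. DESeq2 called 1 higher and 1 lower. Kcnq1 and Kcne2 encode the pore and an accessory subunit of a potassium channel. Kcnq1 stood at 463 and 370 TMM-scaled CPM in GF, 213, 217 and 194 in SPF and 249 and 236 in CGF (log2 1.03 ± 0.18, edgeR adjusted p = 0.00465, and 0.13 without GF mouse 6). It was as much higher in the other nuclei (1.04, adjusted p = 0.000928), where its level was close to that in choroid plexus nuclei, at a ratio of 1.54. Kcne2 stood at 114 and 135 in GF, 83.5, 66.0 and 49.4 in SPF and 65.5 and 52.9 in CGF (log2 1.02, adjusted p = 0.0206). Car14, a membrane carbonic anhydrase that makes bicarbonate, Trpv4 and Fxyd1, a regulator of the sodium pump, were higher by 1.03, 0.70 and 1.15. Their adjusted p-values were 0.0162, 0.0195 and 0.0361, and none of the 3 was called without GF mouse 6 (0.23, 0.23 and 0.53), GF mouse 7 (0.069, 0.11 and 0.055) or SPF mouse 32 (0.069, 0.064 and 0.12). With the dependence on length and GC content removed, Car14 was at 0.47 and Fxyd1 at 0.22 (adjusted p = 0.24 and 0.73).

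Stk39 was the gene of this list that fell. It encodes a kinase that switches on the sodium, potassium and chloride cotransporter, and it stood at 2187 and 1939 TMM-scaled CPM in GF, 3306, 4671 and 3984 in SPF and 3484 and 3416 in CGF. The difference from SPF was -0.95 ± 0.19 on the log2 scale (edgeR adjusted p = 0.00813, 0.087 without GF mouse 6 and 0.063 without GF mouse 7), and Stk39 was also lower in the other nuclei (-0.57, adjusted p = 0.00138). Trpm3 stood at 17445 and 19435 in GF, 22894, 26720 and 20158 in SPF and 28001 and 27158 in CGF (log2 -0.34, adjusted p = 0.225). Slc4a10, a sodium-dependent bicarbonate transporter of the blood-facing membrane, stood at 2487 and 2584 in GF and 2559 to 2852 in SPF (log2 -0.09 ± 0.17, adjusted p = 0.776), and Clic6 overlapped between GF and SPF (adjusted p = 0.461).

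Solute and drug transporters numbered 38, with 24 tested and 2 called, both higher in GF, where 8.92% of all genes were higher, at a median of -0.0025. No gene of this list was called by DESeq2. Slc16a8 stood at 98.0 and 85.6 TMM-scaled CPM in GF, 37.1, 40.9 and 44.9 in SPF and 61.1 and 40.8 in CGF (log2 1.13 ± 0.26, edgeR adjusted p = 0.014, 0.24 without GF mouse 6 and 0.052 without GF mouse 7). Steap1, of a family of metal reductases, was higher by 1.47 (adjusted p = 0.0241) on 16.9 to 67.3 CPM. Slc23a2, which carries vitamin C, and Slco1c1, which carries thyroid hormone, had adjusted p-values of 0.676 and 0.406. In the list of folate, thyroid hormone and retinoid handling, Ttr was the only one of 12 tested genes (31 listed) that passed. Of 22 tested tight and adherens junction genes (31 listed), none was called between GF and SPF or between GF and CGF by edgeR or DESeq2, with a median of -0.11 between GF and SPF, where 5 had an unadjusted edgeR p under 0.05 (7 between GF and CGF). The junction scaffold genes Pard3b, Magi1 and Pard3 had log2 differences of -0.38, -0.35 and -0.12 (adjusted p = 0.186, 0.309 and 0.716).

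Receptors and hormone response genes numbered 36, of which 22 were tested, 2 were higher in GF and 4 were lower, at a median of -0.09, where 8.92% of all genes were higher and 4.34% lower. With DESeq2, 1 was called higher and 1 lower. Prlr (the prolactin receptor) stood at 749 and 960 TMM-scaled CPM in GF, 297, 506 and 516 in SPF and 393 and 447 in CGF. Both GF libraries lay above all others (log2 0.93 ± 0.23, edgeR adjusted p = 0.020, 0.11 without GF mouse 6 and 0.17 without GF mouse 7). Igf2r, a receptor that clears insulin-like growth factor, was higher by 0.77 (adjusted p = 0.048), a call that held under 3 of 17 alternatives and was lost without any 1 library (adjusted p up to 0.26). Nr3c2, the mineralocorticoid receptor gene, stood at 236 and 214 in GF, 607, 541 and 427 in SPF and 729 and 636 in CGF (log2 -1.19, adjusted p = 0.00449, and 0.072 without GF mouse 6). It was also lower in the other nuclei, by -1.07 (adjusted p = 0.00178), and its level in choroid plexus nuclei was 0.49 times theirs. Lepr, Ghr and Adcy1, which encode the leptin receptor, the growth hormone receptor and an adenylyl cyclase, had log2 differences of -1.07, -1.09 and -0.93 (adjusted p = 0.0421, 0.029 and 0.0206). Htr2c stood at 15845 and 14753 in GF, 13347 to 17321 in SPF and 15690 and 16122 in CGF (log2 0.01 ± 0.17, adjusted p = 0.966).

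Among 38 transcription factors and related regulators, 20 were tested, 5 were higher in GF and 3 were lower, at a median of 0.0035, where 8.92% of all genes were higher and 4.34% lower. The DESeq2 calls in this list were 2 higher and 1 lower. Id1 and Id3, inhibitors of helix-loop-helix factors that respond to BMP, were higher by 2.22 and 2.05 (edgeR adjusted p = 0.00602 and 0.00813). Id1 stood at 170 and 76.5 TMM-scaled CPM in GF, 41.7, 47.2 and 16.9 in SPF and 26.2 and 31.7 in CGF, and it was not called without GF mouse 6 (0.24). Msx1, a homeobox gene, was higher by 0.97 (adjusted p = 0.00897, and 0.24 without GF mouse 6), Hes1, a Notch target, by 1.19 and Zic1 by 1.04. Foxp2, Nfia and Nfib were lower, by -1.31, -0.71 and -0.60 (adjusted p = 0.0138, 0.0214 and 0.0372). The identity factor Lmx1a stood at 431 and 477 in GF, 385, 465 and 402 in SPF and 445 and 463 in CGF (adjusted p = 0.687).

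More of the cilia genes were lower than higher in GF. Of 50 listed, 49 were in the files and 36 were tested, with 7 lower, 1 higher and a median log2 difference of -0.49, against 4.34% lower, 8.92% higher and a median of -0.02 over all genes. DESeq2 called 2 lower and none higher, and 20 had an unadjusted edgeR p under 0.05. Dnah7b, an axonemal dynein gene, stood at 159 and 199 TMM-scaled CPM in GF, 320, 362 and 334 in SPF and 349 and 325 in CGF (log2 -0.94 ± 0.19, edgeR adjusted p = 0.00805, and 0.18 without GF mouse 6). Hydin, a gene of the central pair of motile cilia, stood at 56.5 and 58.1 in GF, 167, 201 and 100 in SPF and 135 and 113 in CGF (log2 -1.34, adjusted p = 0.014, 0.18 without GF mouse 6 and 0.051 without GF mouse 7). Dnah9 and Dnah11, further dyneins, and Kif27, Cfap44 and Cfap54 had log2 differences from -0.96 to -0.61, all called. With stricter membership Kif27 turned to 0.086 and Cfap54 was at -0.25 (adjusted p = 0.62). Drc1, of the dynein regulatory complex, was higher by 0.92 (adjusted p = 0.0186). With the dependence on length and GC content removed, Dnah7b was at -0.58 (adjusted p = 0.087) and Hydin at -1.01 (adjusted p = 0.069). Gmnc stood at 918 and 1177 in GF and 858, 516 and 683 in SPF (adjusted p = 0.124). Of the 4 ependyma markers tested, Hydin, Cfap43 and Rsph1 are on the cilia list as well, so that the lists are not independent, and Hydin was called lower, with a median of -0.63 over the 4. The sum over all 8 listed ependyma markers was 360 and 458 CPM in GF, 491 to 1030 CPM in SPF and 516 to 543 CPM in CGF, and its part in the cilia results was not tested.

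Stress and immune genes were mostly at low counts. Of 52 listed immune, interferon and endotoxin response genes, 11 were tested, and Irf3, a factor of the interferon response, was the only one called between GF and SPF (log2 1.22, edgeR adjusted p = 0.0364, and 1.04 with an adjusted p of 0.00127 in the other nuclei). Without GF mouse 6, Irf3 was at 0.56 with an adjusted p of 0.62. Between GF and CGF, 3 of the 11 were higher, where 7.97% of all genes were, and DESeq2 called 1. Lbp, which encodes the endotoxin-binding protein of plasma, stood at 245 and 257 TMM-scaled CPM in GF, 104 to 167 in SPF and 21.8 and 99.8 in CGF, with GF above all others. Lbp differed from CGF by 1.77 on the log2 scale (adjusted p = 0.00826, 0.065 without GF mouse 6, and 3.49 on the log2 scale without CGF mouse 19), and from SPF by 0.88 (adjusted p = 0.0719). Cd59a, an inhibitor of complement, and the cytokine gene Mif differed from CGF by 1.47 and 1.87 (adjusted p = 0.0168 and 0.0199), and neither was called without GF mouse 6 (0.19 and 0.31) or CGF mouse 17 (0.090 and 0.077), nor Mif without CGF mouse 19 (0.090), where Cd59a was at 2.34. Of 37 genes of the aryl hydrocarbon receptor, xenobiotic and antioxidant response, 24 were tested and 7 were higher in GF, all of them peroxidases, peroxiredoxins or metallothioneins, with a median of 0.60, against 8.92% higher and a median of -0.02 over all genes. Gpx4, which reduces lipid peroxides, stood at 180 and 156 TMM-scaled CPM in GF, 51.0, 66.0 and 74.4 in SPF and 48.0 and 71.0 in CGF (log2 1.32, adjusted p = 0.00407). 6 of these 7 genes were called in the other nuclei as well, and Gpx4 was at 0.46 with an adjusted p of 0.18 once the dependence on length and GC content was removed and at 1.19 with an adjusted p of 0.11 without GF mouse 6. Of 12 tested clock genes (20 listed), none was called between GF and SPF by edgeR or DESeq2, and 2 had an unadjusted edgeR p under 0.05.

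Genes of the general machinery of the cell moved with the groups as well. Cytosolic ribosomal protein genes were higher in GF than in SPF at 24 of 38 tested and lower at none, with a median log2 difference of 1.26, where 8.92% of all genes were higher. Nuclear genes of the respiratory chain were higher at 33 of 66 tested (median 1.03), and genes of the mitochondrial genome at 11 of 11 (median 1.69). With DESeq2 the counts of these 3 lists were 11, 16 and 6, all higher in GF. In the other nuclei, 22 of the 24 ribosomal protein genes, all 33 respiratory chain genes and 3 of the 11 mitochondrial genes were called higher as well. Of 9 neuron markers tested, Celf2, Syt1, Kcnip4 and Prox1 were lower and Nrgn was higher, where 4.34% of all genes were lower and 8.92% higher. Of 5 astrocyte markers tested, Slc1a3 was lower, by -1.08. The part of these in the other gene results was not tested.

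**Figure D3:**
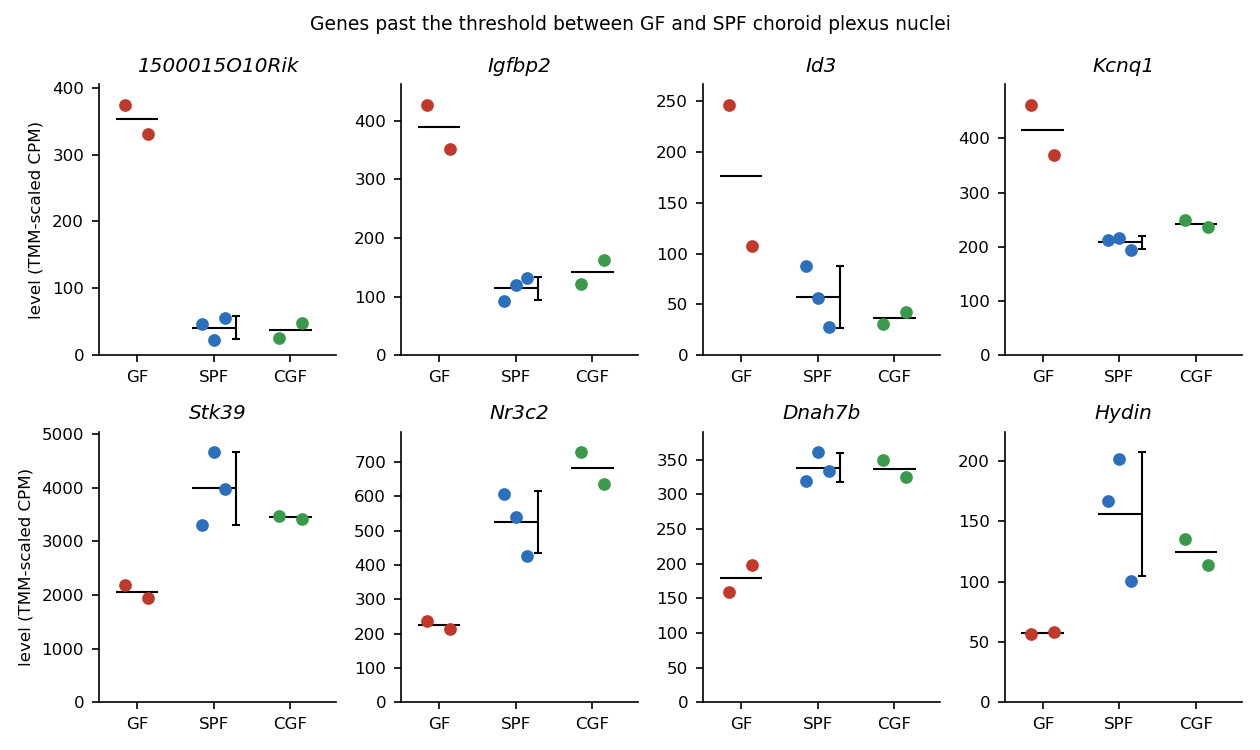
Level in choroid plexus nuclei, in TMM-scaled CPM, of 4 genes that rose (1500015O10Rik, Igfbp2, Id3 and Kcnq1) and 4 that fell (Stk39, Nr3c2, Dnah7b and Hydin) in GF against SPF, with 1 point for each of the 7 libraries, a line at the group mean and a bar of 1 SD for SPF (n = 3). The GF points did not overlap with the SPF points in any panel, and for 1500015O10Rik they lay at 375 and 330 against 22.0 to 55.3 in the other libraries. The genes shown were chosen among those called, and GF and SPF did not overlap at 45.8% of all tested genes.

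**Figure D4:**
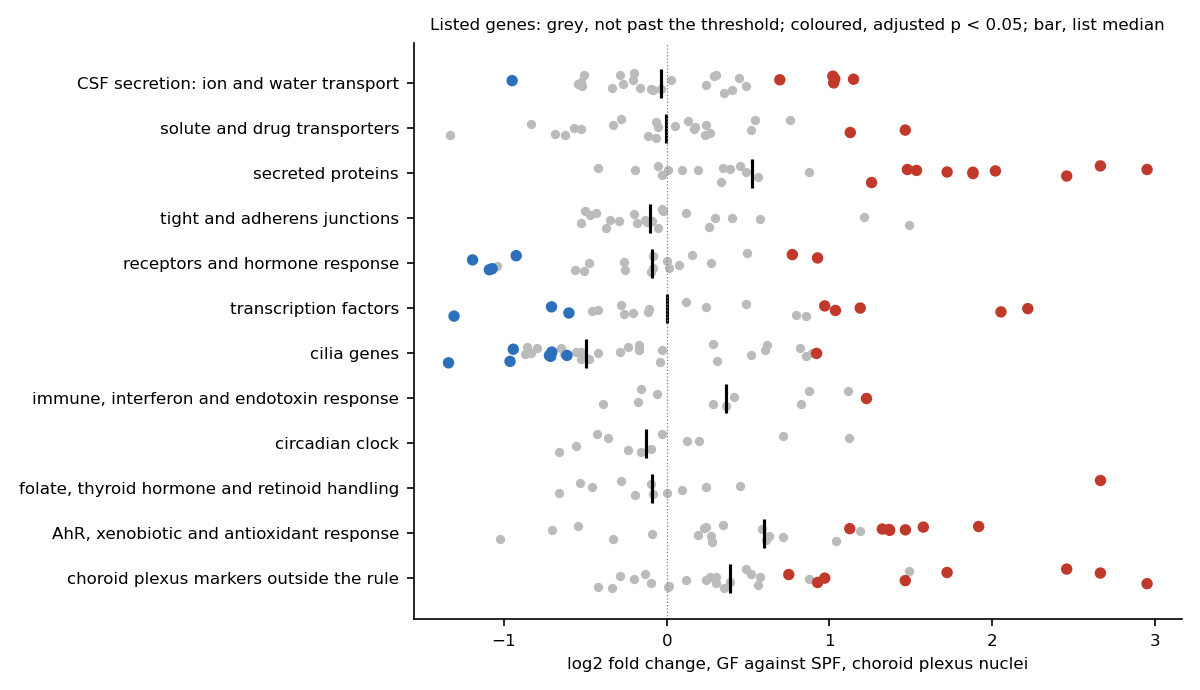
Log2 fold change between GF and SPF choroid plexus nuclei for each tested gene of the 12 functional lists, in grey for genes not past the threshold, in red for genes higher and in blue for genes lower in GF at an adjusted p under 0.05 (edgeR), with a bar at each list's median. Secreted proteins had a median of 0.52 with 10 of 24 genes higher, cilia genes a median of -0.49 with 7 of 36 lower, and junction genes none past the threshold. Over all 7549 tested genes, 8.92% were higher and 4.34% lower.

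The genes with the largest changes were mostly at low levels. Tax1bp3, a small PDZ domain protein gene, rose by 3.63 on the log2 scale with 48 and 12 UMIs in GF and 0, 2 and 5 in SPF (edgeR adjusted p = 0.00407). D730003I15Rik rose by 3.00, Prom1 by 2.99 and Clec2g by 2.78. The largest falls were Gm45846 at -2.70, Erich3 at -2.68, Gm2115 at -2.25, Cntnap5c at -2.11 and Cdh12 at -2.05. Cntnap5c and Cdh12, of neuronal adhesion protein families, were at 0.147 and 0.224 times their level in the other nuclei.

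Between GF and CGF, 1056 genes were called (14%), with 602 higher in GF (7.97%) and 454 lower (6.01%). This comparison shares the GF libraries with the one above, and 667 genes were called with the same sign in both and 0 with the opposite sign. The count was 146 without GF mouse 6, 531 without GF mouse 7, 399 without CGF mouse 17 and 553 without CGF mouse 19, and it was 425 with DESeq2. With the dependence on length and GC content removed, 42.6% of the calls were higher in GF (211 of 495) against 57.0% before. The balance also turned with DESeq2 (209 higher and 216 lower) and with no filter on low counts (643 and 687). Higher calls remained the larger part under the other settings that left out no single mouse. Secreted proteins were higher at 10 of 24, with 0 lower, and ion and water transport genes at 6 of 27, with 2 lower. DESeq2 called 10 of the secreted proteins and none of the ion and water transport genes, of which 11 had an unadjusted edgeR p under 0.05. The largest rises included Ppcs, of coenzyme A synthesis, by 4.72 (7.46 without CGF mouse 17, 2.96 and not called without CGF mouse 19, and not called without GF mouse 6), and the mitochondrial genes mt-Co3, mt-Co2 and mt-Cytb by 3.73, 3.57 and 3.38. Snu13 rose by 3.27 (7.93 without CGF mouse 19, and not called without GF mouse 6, adjusted p = 0.11). mt-Co3 stood at 4177 and 4364 TMM-scaled CPM in GF, 192 and 428 in CGF and 1414, 415 and 1131 in SPF. The largest falls were Ranbp3l at -4.24, Gm30382 at -3.34, Adamts12 at -3.01, Epha6 at -2.92 and Slc7a11 at -2.84. Ranbp3l, Adamts12 and Slc7a11 were at least as high in choroid plexus nuclei as in the other nuclei, whereas Gm30382 and Epha6 were not. For Gm30382 the log2 ratio to the other nuclei was -4.98 and -3.54 in GF and -0.57 and -2.27 in CGF. The neuron marker sum was 4415 to 4435 CPM in GF and 8608 to 11850 CPM in CGF, and its part was not tested. Without GF mouse 6, Ranbp3l, Gm30382 and Slc7a11 were not called (edgeR adjusted p = 0.054, 0.32 and 0.11) and Adamts12 was at -4.73, and without CGF mouse 17 Gm30382 was at -2.13 (adjusted p = 0.17). Slc7a11, a cystine and glutamate exchanger, stood at 13.8 and 12.2 in GF and 100.4 and 95.2 in CGF.

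Between CGF and SPF, 5 genes were called, all higher in CGF (0.0662% of 7549), while 480 had an unadjusted p under 0.05. The 12 functional lists, which share some genes, held 228 different tested genes and none was called by edgeR or DESeq2, with 17 at an unadjusted edgeR p under 0.05. Over all genes DESeq2 called 6 higher and 1 lower. Prom1, a membrane protein of cell protrusions, had 20 and 31 UMIs in CGF mice 17 and 19 and 0, 2 and 5 in SPF mice 30, 31 and 32, a log2 difference of 3.98 ± 0.55 (edgeR adjusted p = 0.0174, 0.079 without CGF mouse 19 and 0.17 without SPF mouse 32). The other four were Robo1 (1.77), Cpne4 (1.65), Slc44a5 (1.59) and Dlgap2 (1.51), each at 0.189 to 0.263 times its level in the other nuclei, and the neuron marker sum was 8608 to 11850 CPM in CGF and 4817 to 10190 CPM in SPF. With stricter membership Dlgap2 turned to -0.049 (adjusted p = 0.999). The count was 0 without CGF mouse 19, 22 without SPF mouse 31 and 3 without SPF mouse 32.

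The last comparison asked whether the GF-to-SPF difference was larger or smaller in choroid plexus nuclei than in the other nuclei of the same mice. With the mouse as a block, 72 of 19227 genes passed (0.374%), with 23 higher (0.12%) and 49 lower (0.255%), and 1237 had an unadjusted p under 0.05. Over all genes the median was -0.11. The balance of the directions turned with single mice: 41 were higher and 21 lower without SPF mouse 30 (median 0.033), 56 and 50 without SPF mouse 31 (median 0.048) and 4 and 2 without GF mouse 6. The count was 34 without GF mouse 7, DESeq2 called 3, and the fit without the block called 0. For Prlr, the log2 ratio of choroid plexus to other nuclei was 5.26 and 5.98 in GF, 4.16, 4.98 and 4.75 in SPF and 4.28 and 4.42 in CGF. Its difference was 0.95 ± 0.23 (edgeR adjusted p = 0.0186, and 1 without GF mouse 7), against -0.14 in the other nuclei (adjusted p = 0.575). For Foxp2 the log2 ratio was -1.08 and -0.57 in GF, 0.75, 0.67 and 0.69 in SPF and -0.40 and -0.55 in CGF, and the difference was -1.64 ± 0.33 (adjusted p = 0.00119, and 0.55 without GF mouse 6). Arhgap29 had ratios of 1.22 and 1.84 in GF, -2.96, -0.28 and -0.61 in SPF and 1.29 and 1.38 in CGF, and a difference of 2.30 ± 0.37 (adjusted p = 3.4e-06). In the other nuclei Arhgap29 was lower in GF than in SPF, by -1.56 (adjusted p = 0.000767).

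Further members of the lists passed this test. Igfbp7 and 1500015O10Rik differed by 1.53 and 1.13 (edgeR adjusted p = 0.0302 and 0.0495). Igfbp7 was not called without GF mouse 6 (0.22), GF mouse 7 (0.37) or SPF mouse 32 (0.77), and 1500015O10Rik was not called without GF mouse 7 (0.26, adjusted p = 1) or SPF mouse 32 (0.14, adjusted p = 1). The cilia genes Ak7, Cfap43 and Dnah11 differed by -1.61, -1.29 and -1.01 (adjusted p = 0.00199, 5.5e-05 and 0.0126), and the GF and SPF ratios of Cfap43 and Dnah11 overlapped, as did those of 1500015O10Rik. Without SPF mouse 31 the differences were -1.06, -0.62 and -0.43 (adjusted p = 0.27, 0.32 and 0.93), and without GF mouse 6 they were -2.08, -0.88 and -0.58 (0.054, 0.54 and 1). Ak7 was also not called without GF mouse 7 (0.14), nor Dnah11 without SPF mouse 30 (0.16). None of the 35 antioxidant and xenobiotic response genes tested passed it, where 0.374% of all genes did. At that share, none passing cannot be read as a trait of the list. Of the 72 genes that passed, 37 were also called between GF and SPF within choroid plexus nuclei, where 13.3% of 7549 genes were called. Ependyma-marked nuclei, the ciliated lining of the ventricle, numbered 11 to 55 in each of the 7 libraries. GF mouse 7 and SPF mouse 30 gave 11 each. Against these nuclei, 0 of 7735 genes passed with edgeR, 1 with DESeq2, and 356 had an unadjusted p under 0.05. That count was 71 without GF mouse 6 and 6 without GF mouse 7.

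**Figure D5:**
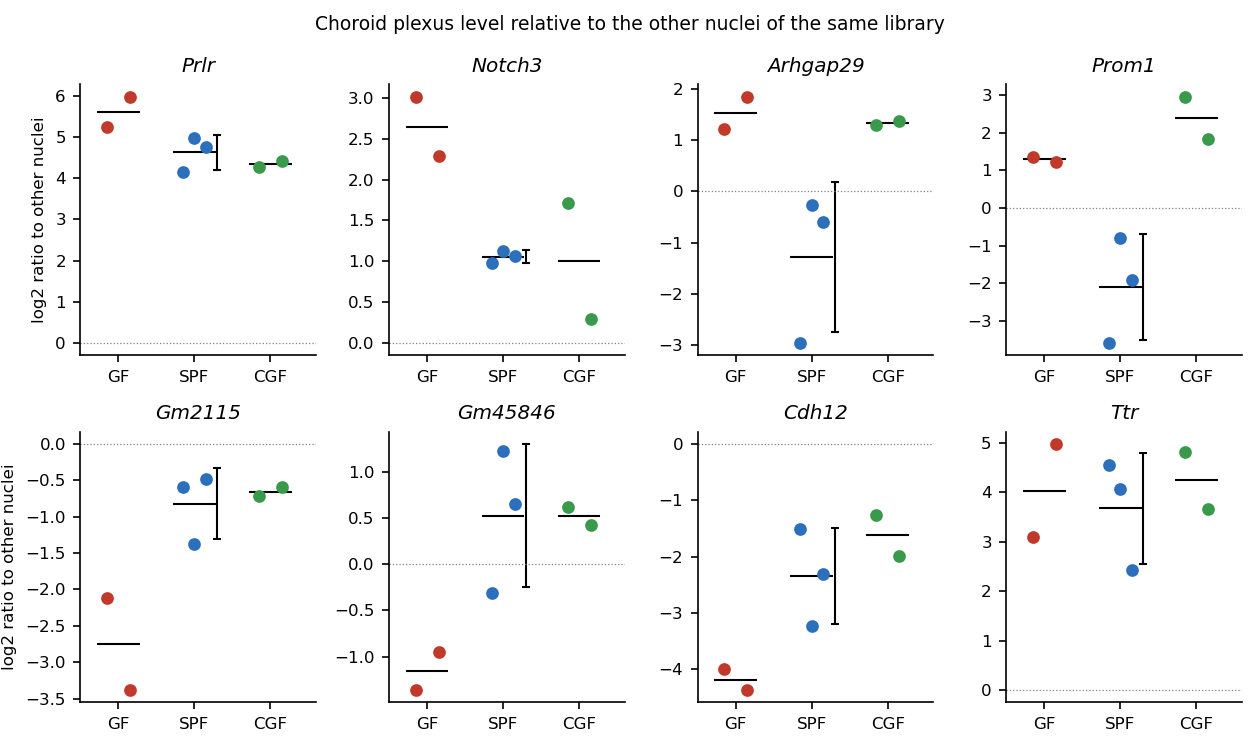
Log2 ratio of the level in choroid plexus nuclei to that in the other nuclei of the same library for 7 genes that passed the test of the difference and for Ttr, which did not, with 1 point for each of the 7 libraries, a line at the group mean and a bar of 1 SD for SPF (n = 3). Prlr lay at 5.26 and 5.98 in GF against 4.16 to 4.98 in SPF, and the GF points of Ttr lay within the range of the SPF and CGF points or close above it.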

How the data were processed

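Nuclei of hippocampus and prefrontal cortex were profiled by 10x 3′ single-nucleus RNA sequencing, with 1 library for each mouse and region. The deposited UMI counts per gene and nucleus were made by the authors with Cell Ranger (the matrix headers give version 3.1.0) against the mm10 genome and an Ensembl annotation, and were used as deposited; the labels' design text and the protocol name different kit versions. CASAVA 1.8 is named in the submitters' processing notes, and the handling of intronic reads is not given in the sources used here. The Hip files hold 72226 barcodes, as many nuclei as the study states, and the stated filter left 71398, all 828 removals being by mitochondrial share. Removals numbered 189, 237 and 220 in GF mice 5, 6 and 7. They numbered 34, 20 and 60 in SPF mice 30, 31 and 32 and 24, 17 and 27 in CGF mice 17, 18 and 19. The part of this uneven loss in the gene results was not tested.

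The markers, lists and membership rule were chosen with earlier results of these data known. Counts of the member nuclei were summed for each mouse, and libraries with at least 10 members were fitted in edgeR 4.0.16 (R 4.3.3; filterByExpr, TMM, quasi-likelihood F test, adjusted p under 0.05, all 3 groups in 1 fit). Member sums held from 232792 to 1412213 UMIs. The standard error was taken as the size of the log2 difference divided by the square root of F. Unless given by library, ratios between nuclei classes are of counts summed over the 7 fitted libraries. The difference of a change from that in other nuclei was an interaction term with the mouse as a block, because both sums come from the same library. Replicates are separate mice. Counts were not divided by gene length, so levels are compared within a gene. No doublet caller was run, and a stricter membership (marker sum of at least 5 and no UMI of the 10 other genes) served as the alternative. Other alternatives were DESeq2 1.42.0, another normalization, filter, membership and depth, a trend on length and GC content, and each mouse left out. In data simulated for the GF against SPF comparison, 39.5% of 200 genes changed 2-fold and 88.5% of those changed 4-fold were recovered among 7549 genes, with 5 and 10 false calls.

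Named were the label markers, the 20 genes with the largest ratio to other nuclei at 50 CPM or more, up to 6 genes of each list (the 3 highest and the 3 smallest adjusted p-values) and the 5 largest rises and falls of each comparison whose groups did not overlap. Further called genes of a list were named after their values were seen. Some genes that the rule names are not reported here.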

Additional observations from a re-analysis of the deposited data

Results flagged for a closer look

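The 10 genes given here had a difference between GF and SPF in choroid plexus nuclei that departed from the difference in the other nuclei of the same mice, by the test of the difference itself. They are the 5 largest departures in each direction among the called genes whose GF and SPF ratios did not overlap, and were chosen by size and not by p. The values are log2 differences in choroid plexus nuclei minus those in the other nuclei. Prom1 differed by 3.47 (edgeR adjusted p = 5.5e-05), on 24 and 12 UMIs in GF, 0, 2 and 5 in SPF and 20 and 31 in CGF, and had an adjusted p of 0.054 without GF mouse 6 and 0.088 without SPF mouse 32. Gm15987 differed by 2.96 (adjusted p = 0.006), on 32 and 28 UMIs in GF and 0, 5 and 18 in SPF, with an adjusted p of 0.054 without GF mouse 6 and 0.42 without GF mouse 7, and it lies antisense to Clec2g, so that reads of this pair cannot be told apart where strand was not counted. Ebf1, a transcription factor of B cells and mural cells, differed by 2.49 on 27 and 4 UMIs in GF and 2, 0 and 9 in SPF, with 1.44 and an adjusted p of 1 without GF mouse 6, and 0.18 without SPF mouse 32. Arhgap29 differed by 2.30 and was the only one of the 10 that kept its call without any 1 of the 5 GF and SPF libraries. CGF libraries were not left out in this test. Its adjusted p was 0.052 with DESeq2 and 0.16 with edgeR without the replicate block, so that it was not called under either. Notch3, a receptor of mural cells, differed by 1.74 on 78 and 20 UMIs in GF and 5, 7 and 36 in SPF, and its adjusted p was 0.98 after leaving out GF mouse 6 and 0.15 after leaving out SPF mouse 32. The marker sum of endothelial and mural cells was 56.2 to 65.8 CPM in GF and 21.5 to 62.3 CPM in SPF, and its part was not tested. Acoxl was fitted at -11.35, but all 41 of its UMIs were in SPF mouse 32 and every other library was at 0, so that the value depends on the prior count and is no bound, and it was -0.36 without that mouse (adjusted p = 1), and not called without GF mouse 6 (0.85), GF mouse 7 (0.24) or SPF mouse 30 (0.056). 3100003L05Rik differed by -3.76 on 5 and 0 UMIs in GF and 29, 26 and 19 in SPF, with an adjusted p of 0.054 to 0.14 without GF mouse 6, GF mouse 7 or SPF mouse 30, and without GF mouse 6, which leaves GF at 0 UMIs, the fitted value of -13.17 is no bound. AC118639.2 differed by -2.61 on 2 and 8 UMIs in GF and 8, 17 and 42 in SPF, and its adjusted p rose to 1 when GF mouse 6 was left out (-1.51; -4.35 and still called when GF mouse 7 was), and to 0.12 and 0.055 when SPF mice 31 and 32 were. Pdp1, a phosphatase gene of pyruvate dehydrogenase, differed by -2.28 on 6 and 1 UMIs in GF and 3, 6 and 24 in SPF, and lost its call without any 1 of the 5 GF and SPF libraries (adjusted p = 0.10 to 0.48). C130073E24Rik differed by -2.12 on 5 and 2 UMIs in GF and 17, 10 and 19 in SPF. It lost its call without any 1 of the GF and SPF libraries other than SPF mouse 32. Its edgeR adjusted p was 0.59 and 0.083 without SPF mice 30 and 31, and it was at -1.79 and -2.26 without GF mice 6 and 7.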

How the results depend on the processing

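The direction of the main results held under most alternatives, while counts of called genes moved. For GF against SPF, 1001 genes became 320 with DESeq2, 140 with stricter membership, 236 with looser membership (which let in 21 nuclei of CGF mouse 18), 448 with libraries thinned to the smallest and 428 corrected for length and GC content, and leaving out each mouse gave 19 to 1076. For GF against CGF, 1056 became 425 with DESeq2, 1592 with only those 2 groups in the fit, 30 with stricter membership, 525 thinned and 495 with that correction, and 146 to 1227 when each mouse was left out. For CGF against SPF, 5 became 75 with no filter on low counts and 0 with only those 2 groups, with stricter or with looser membership, and 0 to 22 when each mouse was left out. The 72 genes that differed from the other nuclei became 3 with DESeq2, 10 with stricter membership and 0 with no replicate block (the pairing there is the same library of the same mouse), and 6 to 106 when each mouse was left out. The 0 genes that differed from ependyma-marked nuclei became 1 with DESeq2, 5 with no filter, and 0 to 71 when each mouse was left out. The exact permutation test of the mitochondrial share passed 0.05 with looser membership (p = 0.00714), with nuclei thinned to 1000 UMIs (p = 0.0429) and, chosen after seeing the data, in the 7 libraries with at least 10 nuclei (p = 0.0286). When each mouse was left out, its p ran from 0.00714 to 0.146, that of the share of nuclei from 0.546 to 0.925, of median UMIs from 0.264 to 0.993, of median genes from 0.229 to 0.639 and of Ttr in other nuclei from 0.0536 to 0.732. With stricter membership, Dlgap2 between CGF and SPF turned to -0.049 (adjusted p = 0.999) and Kif27 between GF and SPF to 0.086 (adjusted p = 0.943). Fewer genes were tested in the stricter and thinned fits (3694 and 5749 for GF against SPF, with 7549 in the main fit). Each left-out fit held 1 library fewer. For the differences from other nuclei and from ependyma-marked nuclei, only GF and SPF mice were left out in turn. The cause of the changes in counts was not tested for any setting. Without a mouse that leaves a group with 1 library, that library is assumed to vary like the others. The mice carry no shared numbers across groups, so no block between groups could be fitted. Members number 38 or 39 in CGF mouse 17 and SPF mouse 30, which limits genes of low count.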
